A study of Caenorhabditis elegans with 2 samples.

Results

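The regions described here are the 5702 candidate regions on the X chromosome among the 30000 candidate regions that were called on the joined reads of 2 ChIP-seq libraries (19.01%, exact 95% interval 18.6 to 19.5). They were chosen by chromosome alone and ranked by the signal that the authors' peak caller gave each region. The authors label the candidate lists as peaks and background, so a candidate need not be a peak. The autosomes held the other 24298 regions. Chromatin immunoprecipitation followed by sequencing (ChIP-seq) recovers DNA fragments that lie close to a protein in living cells. Here the protein was an eGFP-tagged copy of R02D3.7, which the annotation names rcat-1, and the animals were Caenorhabditis elegans larvae of the L2 stage, taken whole. The strain, OP218, carries the mutation unc-119(ed3) on chromosome III together with the transgene insertion wgIs218, and both libraries share this genotype. The labels give pooled males and females, an unknown age within the L2 stage and 2 biological replicates in 1 group, and they name no treatment. The same labels give the antibody as R02D3.7 and do not say which promoter drives the tagged copy, and whole larvae mix all cell types. No list from a strain without the tag was used here, so there is no comparison between groups of animals, and all comparisons below are between X and the autosomes of the same lists.

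The X chromosome of C. elegans is present as a pair in hermaphrodites and as a single copy in males. In hermaphrodites a condensin-like dosage compensation complex loads onto both X chromosomes and lowers their transcription. The complex first enters at a small number of recruitment sites on X, which are known for a short motif with the core GCGCAGGG, and spreads from there along the chromosome. The gene xol-1 on X is the switch that reads the number of X chromosomes early in life and sets both the sex and the dosage compensation of the animal.

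Regions that passed the irreproducible discovery rate step (IDR), which asks whether 2 replicates rank a region alike, are called the IDR set. The authors label this set optimal. Its members need not rank alike in each replicate's own list, and on X they ranked down to 6321 in replicate 2. The IDR set was exactly the top of the joined list by signal, and 54 of its regions lay on X and 488 on the autosomes. A summit was counted as inside a promoter window when it lay at most 1000 bp upstream or 200 bp downstream of an annotated protein-coding 5′ end. On X 24 IDR summits lay inside such windows and 30 outside.

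The sequences below are the 50 bp to each side of the summits of strong X regions, 3 inside promoter windows and then 4 outside, and show what the strongest signals on X stand on. All are from the RefSeq copy of WBcel235 (the sequence of ce11), plus strand, 5′ to 3′, and capitals mark the core of the X motif (GCGCAGGG) and 2 words that are frequent at promoters in these data, CGTAAA and, touching the core at gcc-1, ACGCGC. Either strand counts, and where the core is marked here it stands on the minus strand. The windows at acl-1, near K02D3.1 and near T27A8.7 hold none of these words.
acl-1, chrX:15849581-15849681: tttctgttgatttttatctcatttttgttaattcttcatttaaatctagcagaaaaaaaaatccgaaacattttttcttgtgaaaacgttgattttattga
F02C12.3, chrX:13396718-13396818: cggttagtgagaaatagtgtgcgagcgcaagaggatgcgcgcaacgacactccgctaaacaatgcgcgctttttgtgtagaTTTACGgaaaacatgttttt
gcc-1, chrX:3159684-3159784: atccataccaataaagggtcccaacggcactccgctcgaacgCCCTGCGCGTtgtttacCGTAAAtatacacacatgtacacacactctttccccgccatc
near W02H3.3, chrX:11094183-11094283: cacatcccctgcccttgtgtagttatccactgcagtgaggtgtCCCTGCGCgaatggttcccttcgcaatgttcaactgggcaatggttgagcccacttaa
near Y41G9A.17, chrX:2997089-2997189: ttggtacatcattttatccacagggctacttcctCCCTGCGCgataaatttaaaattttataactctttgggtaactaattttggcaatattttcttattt
near K02D3.1, chrX:13700806-13700906: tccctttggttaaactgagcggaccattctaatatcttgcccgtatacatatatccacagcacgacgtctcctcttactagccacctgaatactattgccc
near T27A8.7, chrX:16056566-16056666: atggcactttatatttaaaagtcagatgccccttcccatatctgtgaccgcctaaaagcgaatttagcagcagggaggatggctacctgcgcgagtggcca

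The next sequences align all 18 copies of the core in the 14 X regions of the IDR set that overlap one, each read 5′ to 3′ on the strand that carries GCGCAGGG, with the core in capitals and 10 bases to each side. They are shown because bases next to the core recur in many of them, but not in all. Each line is named after the gene with the nearest protein-coding 5′ end, which says nothing about regulation of that gene.
near W02H3.3, chrX:11094216-11094243, minus strand: ggaaccattcGCGCAGGGacacctcact
near gcc-1, chrX:3159716-3159743, minus strand: ggtaaacaacGCGCAGGGcgttcgagcg
near Y41G9A.17, chrX:2997113-2997140, minus strand: taaatttatcGCGCAGGGaggaagtagc
near Y41G9A.17, chrX:2997288-2997315, minus strand: agatcgtatcGCGCAGGGaggaagtatg
near nspc-17, chrX:14525890-14525917, minus strand: attgcctatcGCGCAGGGacagatgtgg
near mom-1, chrX:6296538-6296565, plus strand: tttacatttgGCGCAGGGggtcaccata
near mom-1, chrX:6296566-6296593, plus strand: gataggtatcGCGCAGGGaagatttacc
near xol-1, chrX:8036391-8036418, minus strand: attttttatcGCGCAGGGacgtatgtcg
near xol-1, chrX:8036425-8036452, plus strand: tttttccatcGCGCAGGGaacccttcga
near F22H10.2, chrX:16682162-16682189, minus strand: agaaaacatcGCGCAGGGaacatcaaat
near F19H6.5, chrX:12363029-12363056, minus strand: tgagttatagGCGCAGGGtcttgaggat
near F20B6.9, chrX:4209256-4209283, minus strand: tgccgctatcGCGCAGGGacacctcttt
near C41A3.2, chrX:5429580-5429607, plus strand: attaaatttaGCGCAGGGaggacgccgt
near gtr-1, chrX:806664-806691, plus strand: tgcgattatcGCGCAGGGgtgtttgttg
near gtr-1, chrX:806740-806767, plus strand: aaaccgatacGCGCAGGGaaaaaaaaat
near ins-39, chrX:1345046-1345073, plus strand: aatgtcattcGCGCAGGGcagctgagcc
near T24D8.6, chrX:2364889-2364916, minus strand: aaataattaaGCGCAGGGatatatagta
near col-185, chrX:13514548-13514575, plus strand: tacctttatcGCGCAGGGatattgaaat

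X regions had a higher share of all candidates than of the IDR set, and their share did not fall steadily with rank. The candidates include background as well as peaks, so their X share is not that of peaks alone. X makes up 17.7% of the nuclear genome by length and carries 13.7% of protein-coding genes. Its share was 19.01% of all candidates, 15.4% of the top 2000 (308 regions), 13.5% of the top 200 (27 regions), 11% of the top 100 and 4% of the top 50 (2 regions). In the IDR set it was 9.96% (54 regions, exact interval 7.57 to 12.8). The IDR set kept 54 of the 5702 X candidates (0.947%, interval 0.712 to 1.23) and 488 of the 24298 autosomal ones (2.01%), against 1.81% over all chromosomes. The replicates differed in this share. In top lists as long as the IDR set, replicate 1 placed 52 regions on X (9.59%) and replicate 2 placed 83 (15.3%, interval 12.4 to 18.6), and the joined list lay near replicate 1. Both shares lay below that of X among the same replicate's candidates, 18.8% in replicate 1 and 19.02% in replicate 2. The replicates differed from each other by more than replicate 2 differed from its own candidates, so the size of the drop is not settled by these libraries.

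Strong X regions lay outside promoter windows more often than strong autosomal regions in both replicates. Within X, by contrast, 24 of 54 IDR summits (44.4%) and 1340 of 5648 other candidates (23.7%) lay inside windows. Of the X IDR summits 30 of 54 lay outside promoter windows (55.6%, interval 41.4 to 69.1), against 58 of 488 on the autosomes (11.9%, 9.15 to 15.1). X thus held 24 of the 454 IDR regions inside windows (5.29%) and 30 of the 88 outside (34.1%). Replicate 1 alone gave 29 of 52 on X (55.8%) and 56 of 490 on the autosomes (11.4%), and replicate 2 alone gave 52 of 83 (62.7%) and 124 of 459 (27.0%). The difference between X and the autosomes exceeded the spread between the replicates, and it carries no test because regions of 1 library are not replicates.

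**Figure D1:**
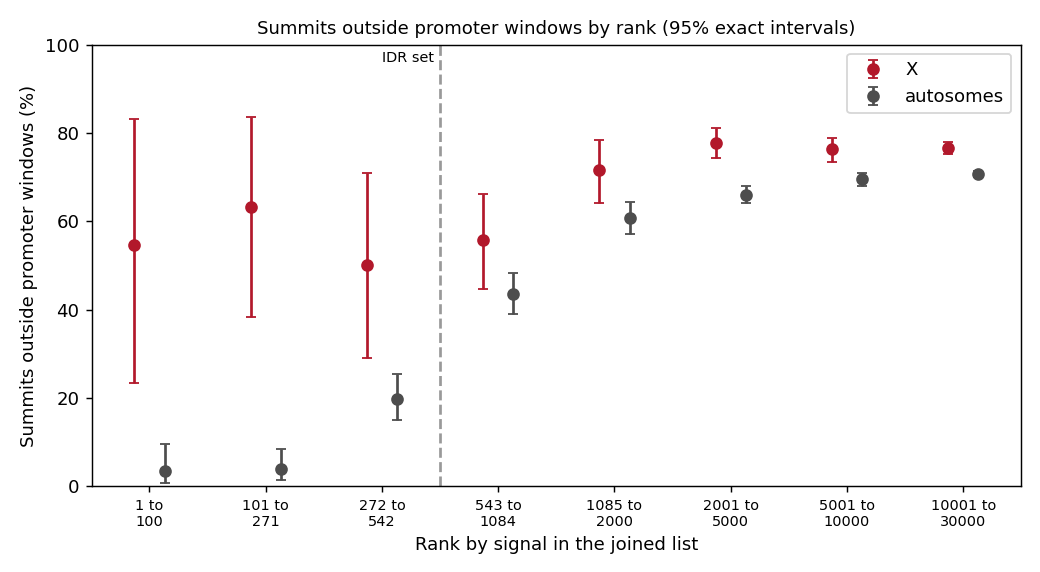
Share of summits outside promoter windows (%, vertical axis) in bins of rank by signal in the joined list (horizontal axis), X beside autosomes, with 95% exact binomial intervals and a dashed line at the end of the IDR set. The 11 X summits of the top 100 stand at 54.5% and the 89 autosomal ones at 3.37%, and the groups approach each other at lower ranks.

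The gap between X and the autosomes was wider in the stronger 50% of the IDR set than below it. In the top 100 of the joined list 6 of 11 X summits lay outside windows (54.5%) and 3 of 89 autosomal ones (3.37%). The top 100 of replicate 1 gave the same counts, and that of replicate 2 gave 6 of 12 on X and 2 of 88 on the autosomes. In the rest of the stronger 50% of the IDR set it was 12 of 19 on X (63.2%) and 6 of 152 on the autosomes (3.95%), and in the weaker 50% it was 12 of 24 (50%) and 49 of 247 (19.8%). Just below the IDR set, down to a rank 2 times its length, 49 of 88 X summits (55.7%) and 198 of 454 autosomal summits (43.6%) lay outside. Among the weakest candidates, of ranks above 10000, the shares were 76.7% on X and 70.8% on the autosomes. The plot of summits outside windows by rank shows that X stood at 50 to 63.2% through the IDR set and the autosomal share climbed with falling rank.

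**Figure D2:**
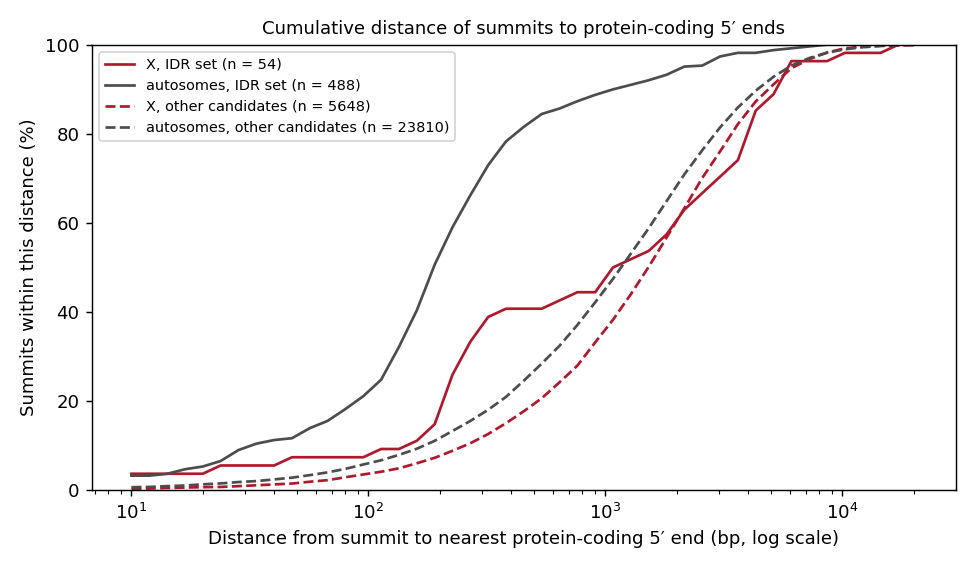
Cumulative share of summits (%, vertical axis) within a given distance of the nearest protein-coding 5′ end (bp, log scale, horizontal axis), for X and autosomal regions of the IDR set (solid) and other candidates (dashed). The X curve of the IDR set leaves the autosomal one early, with 15 of 54 X summits and 310 of 488 autosomal summits within 250 bp.

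X IDR summits lay a median of 1099.5 bp from the nearest protein-coding 5′ end (range 9 to 15182), against 188.5 bp for autosomal IDR summits (range 1 to 8066). Within 250 bp lay 15 of 54 X summits (27.8%) and 310 of 488 autosomal summits (63.5%). Beyond 2000 bp lay 20 X summits (37.0%) and 26 autosomal ones (5.33%). The other candidates differed less, with medians of 1520 bp on X and 1167 bp on the autosomes. Inside windows the medians were close, at 211 bp on X and 171.5 bp on the autosomes, and outside they were 3442.5 bp on X and 1888 bp on the autosomes. In the plot of cumulative distance the X curve of the IDR set lies below the autosomal one from 20 to 1000 bp, and at 10 bp it lies slightly above (2 of 54 on X and 16 of 488 on the autosomes).

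Most of the distant X regions lay between genes. Of the 30 X summits outside windows 24 lay between protein-coding genes (80%, interval 61.4 to 92.3), 5 in introns and 1 in a coding exon. On the autosomes 29 of 58 lay between genes (50%, 36.6 to 63.4) and 26 in introns. Over all IDR summits, inside and outside windows, the shares between genes were alike. They were 45 of 54 on X (83.3%) and 400 of 488 on the autosomes (82.0%). The summit in a coding exon lay in pks-1, a polyketide synthase gene, 15182 bp from the nearest 5′ end, that of C41A3.2. The window of a gene of another type held 8 of the 30 X summits (7 with an ncRNA gene, 3 with tRNA genes and 1 with a snoRNA gene) and 23 of the 58 autosomal ones. When 5′ ends of all gene types were used, 59.3% of X IDR summits lay in a window and the median distance was 330.5 bp, so the distances above hold for protein-coding 5′ ends only.

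The strongest X region lay at acl-1 (chrX:15849511-15849803, rank 20 of the joined list), a member of an acyltransferase family. Its signal was 476.5 in the joined list, 357.4 in replicate 1 (rank 18) and 120.1 in replicate 2 (rank 26), and its summit lay 254 bp upstream of the 5′ end. The next X region lay 205 bp upstream of F02C12.3 (chrX:13396670-13396866, rank 37, signal 341.3, with 241.7 in replicate 1 and 99.25 in replicate 2). These were the only X regions in the top 50, and the strongest autosomal region had a signal of 1698.7. Signals of different lists share no known scale, so a value of replicate 1 cannot be set against one of replicate 2.

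The next 4 X regions were 2 outside and 2 inside promoter windows. The region near W02H3.3 (chrX:11094178-11094271) ranked 60 with a signal of 254.1, and had 161.9 in replicate 1 and 90.62 in replicate 2. Its summit lay 3953 bp downstream of the 5′ end of W02H3.3 and between genes. The promoter region at gcc-1 (chrX:3159663-3159812) ranked 67 with 233.7 in the joined list, 184.3 in replicate 1 and 52.22 in replicate 2. Rank 77 was a summit in an intron near the 5′ end of Y41G9A.17, 2613 bp away (chrX:2996974-2997303, signal 206.1). Rank 82 lay in the promoter windows of Y34B4A.2 and rga-8, with its summit in an intron of rga-8 (chrX:5279322-5279651, signal 200). All 4 stood among the top 100 of both replicates' lists.

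The other X regions in the top 100 were 4 outside windows and 1 inside. Ranks 85 and 94 lay between genes, 6051 bp from K02D3.1 (signal 191.9) and 2530 bp from ZK899.6 (signal 184.3). Rank 91 lay 1071 bp from T27A8.7 (signal 186.9) and in the window of the snoRNA gene T27A8.8. Rank 95 lay in an intron, 3403 bp from the 5′ end of mom-1, the worm Porcupine gene needed for Wnt secretion (chrX:6296350-6296679, signal 182.6). The 1 promoter among them was that of nspc-17, of a nematode-specific peptide family, at rank 86 with a signal of 190.7.

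Ranks 112 to 117 held the last of the 15 strongest X regions. The promoter region of nucb-1, a nucleobindin gene, had a signal of 156.5 (rank 112), and that of tag-123 had 150.9 (rank 117). Between genes, a summit 1387 bp from F55G7.5 had a signal of 153.4. Rank 113 was a region 4861 bp upstream of xol-1 (chrX:8036287-8036616), with 154.7 in the joined list, 133.4 in replicate 1 (rank 97) and 32.89 in replicate 2 (rank 149). Its sequence holds 2 copies of the core on opposite strands. Of the 15 strongest X regions, 7 thus lay inside windows and 8 outside.

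Within X, the order of signals inside and outside windows depended on the list. The X IDR regions had a median signal of 67.8 inside windows (range 39.7 to 476.5, n = 24) and 99.1 outside (39.1 to 254.1, n = 30). On the autosomes the medians were 73.6 inside (n = 430) and 49.8 outside (n = 58). The top list of replicate 1 gave 50.3 inside and 79.8 outside on X, but that of replicate 2 gave 20.5 inside and 16.9 outside. The latter holds other regions, since 43 of its 83 X regions are not in the IDR set. The difference was thus -31.4 in the X IDR regions and 3.59 in the top list of replicate 2, and the ranges overlap. The X IDR regions themselves had medians of 49.4 inside and 76.1 outside in replicate 1. In replicate 2 they had 24.1 inside (n = 24) and 24.85 outside (n = 29).

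**Figure D3:**
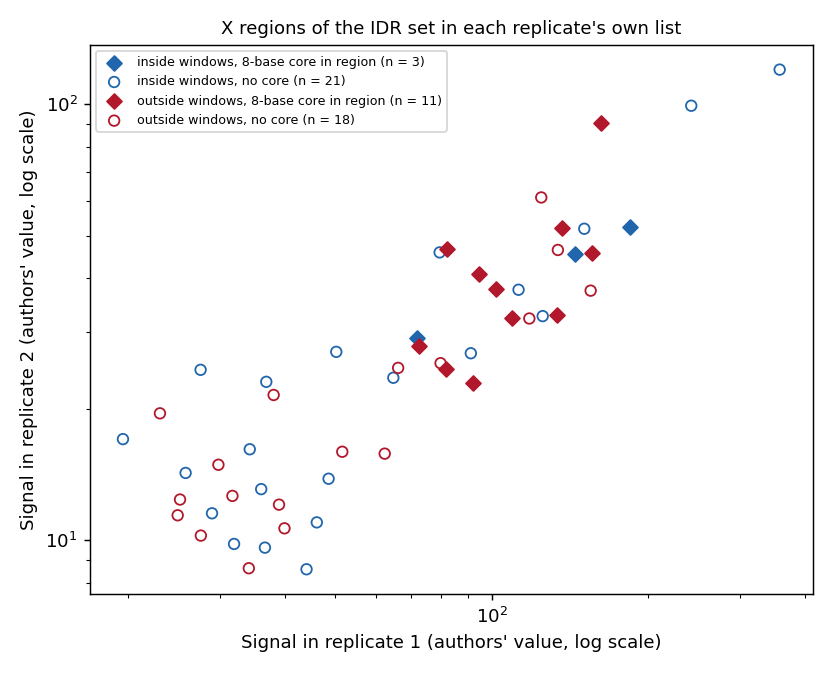
Signal of X regions of the IDR set in replicate 1 (horizontal axis) and replicate 2 (vertical axis), both the authors' values on log scales, for 24 regions inside and 29 outside promoter windows. Filled diamonds mark regions that hold the 8-base core, which lie between 71.8 and 184.3 in replicate 1 and between 22.9 and 90.6 in replicate 2.

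Most X IDR regions overlapped a candidate in each replicate's list. They were called on the joined reads of these same 2 libraries, and the replicates' lists include background, so such overlap was largely given beforehand. All 54 overlapped a candidate of replicate 1 and 53 one of replicate 2, the exception being the intron region near pdk-1 (rank 445, signal 45.03, and 39.3 in replicate 1). In the top lists of both replicates, each as long as the IDR set, were 35 of the 54 X regions (64.8%, interval 50.6 to 77.3) and 295 of 488 autosomal regions (60.5%), against 60.9% over all chromosomes, which is near the X value. On X it was 14 of 24 inside windows and 21 of 30 outside, and on the autosomes 273 of 430 inside and 22 of 58 outside. Outside windows these are 70% on X (interval 50.6 to 85.3) and 37.9% on the autosomes (25.5 to 51.6), and the difference was not tested. The 2 groups also differ in strength, with a median joined rank of 187.5 on X and 404.5 on the autosomes. The part of rank in the difference was not tested.

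The X regions on which the replicates differed most were weak in the joined list. At ZK1193.2 (rank 390, signal 51.7) replicate 1 gave 44.1 and rank 331, and replicate 2 gave 8.58 and rank 6321. A region in an intron of him-4, the hemicentin gene, whose summit lies on a tRNA gene and whose nearest 5′ end is that of F15G9.5 (rank 476), had 34.2 and rank 444 in replicate 1, and 8.63 and rank 6160 in replicate 2. At C27C12.1 and C27C12.4 (rank 477) the values were 36.7 and rank 404 in replicate 1, and 9.62 and rank 3934 in replicate 2. Replicate 2 in turn placed 83 X regions in its top list, of which 40 belonged to the IDR set and 43 did not. Of these 43, 29 lay outside windows, 0 of the 43 held the core within 50 bp of the summit, which allows up to 6.98% at 3 counts, and their median rank in the joined list was 1767.

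At the end of the IDR set the signals formed no step. The last X regions inside it lay at pkhm-2 (rank 526, signal 39.9), at pdi-6, which encodes a protein disulfide isomerase (rank 529, 39.7), and near lgc-21 (39.1, the last region of the set). The first X regions after it lay at epg-7, an autophagy gene (rank 552, 38.7), at ftt-2, which encodes a 14-3-3 protein (rank 558, 38.4), and near daf-12 (rank 563, 38.2). The region at epg-7 overlapped no candidate of replicate 2.

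Along the chromosome the X IDR regions ran from position 410243 to 17544527 of 17718942. When X was cut in 3 by length, 22 IDR summits lay in the left part, 14 in the central part (25.9%, interval 14.96 to 39.7) and 18 in the right part. The candidates were spread evenly, with 34.1% in the central part, and 35.8% of X protein-coding genes lie there. The top list of replicate 1 had 15 of 52 in the central part (28.8%) and that of replicate 2 had 29 of 83 (34.9%), and the interval of the IDR set covers the share of genes.

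Neighbouring X IDR summits were a median of 247.7 kb apart, against medians of 63.6 to 165 kb on single autosomes. Density was 3.05 IDR regions per Mb on X and between 4.16 and 7.69 on the autosomes. In replicate 1 alone the median was 248.8 kb on X and 63.1 to 154 kb on the autosomes, with densities of 2.94 per Mb on X and 4.25 to 7.84 on the autosomes. In replicate 2 alone X lay within the range of the autosomes, with a median of 130.5 kb against 88.7 to 136 kb and a density of 4.68 per Mb against 4.01 to 6.38. The closest pair on X was serp-1.1 and acl-1, 8.36 kb apart and the only gap under 10 kb, and 6 gaps were under 50 kb. The widest gaps were 1049.57 kb, between the summits near gcc-1 and F20B6.9, and 1033.63 kb, between those near F19H6.5 and F02C12.3. Candidates of all ranks were spaced alike, with a median of 2.14 kb on X and 2.13 to 2.38 kb on the autosomes, and 386 of the 5702 X candidates overlapped another one. The region of rank 95 near mom-1 has such a neighbour, whereas no X IDR region overlapped another X IDR region.

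The core of the X motif stood at a fraction of the strong X summits. The core GCGCAGGG, searched on both strands, lay within 50 bp of the summit in 11 of 54 X IDR regions (20.4%, interval 10.6 to 33.5), 3 of 24 inside windows and 8 of 30 outside (26.7%, 12.3 to 45.9). In the autosomal IDR windows it was 0 of 488, with a limit of 0.615% at 3 counts. In windows of the same length centred 300 bp to each side of the X summits it was 0 of 108, with a limit of 2.78%. Among the other candidates it lay in 2 of 5648 X windows (0.0354%) and 5 of 23810 autosomal windows (0.0210%). Each replicate gave the same contrast, with 10 of 52 X windows in replicate 1 and 11 of 83 in replicate 2, and 0 of 490 and 0 of 459 autosomal windows (limits of 0.612% and 0.654%). A match is a run of letters and not a measured site.

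**Figure D4:**
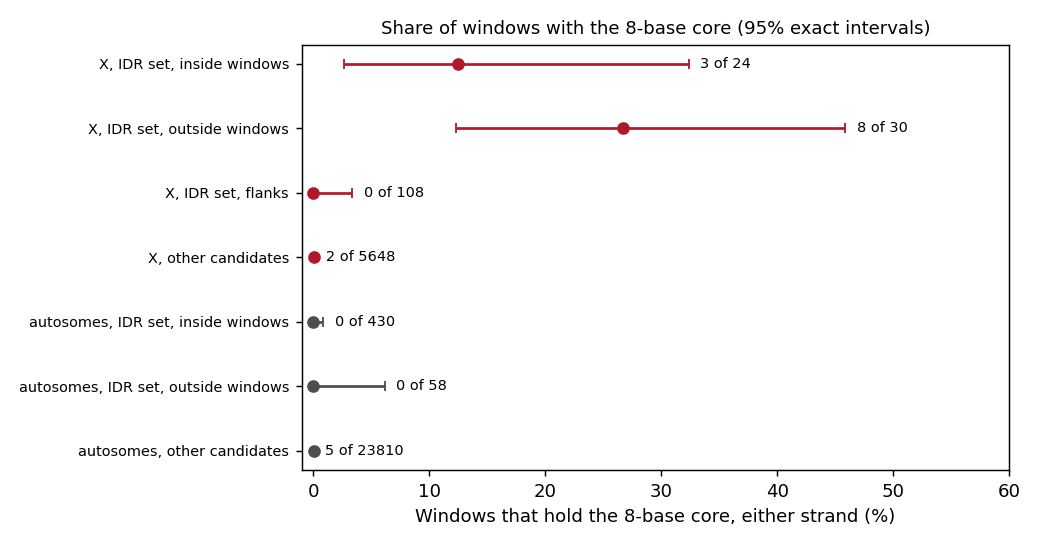
Share of windows of 50 bp to each side of the summit that hold the 8-base core on either strand (%, horizontal axis) for classes of X and autosomal regions, with 95% exact binomial intervals and the counts written beside them. The X regions of the IDR set show 3 of 24 inside and 8 of 30 outside promoter windows, and the autosomal ones 0 of 488.

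Over whole regions, a search added after the data were seen, the core lay in 14 of 54 X IDR regions (25.9%, interval 14.96 to 39.7), 3 inside and 11 outside windows, and in 2 of 488 autosomal IDR regions (0.410%). With 1 mismatch allowed within 50 bp of the summit, likewise added afterwards, it was 20 of 54 on X (37.0%), 4 of 24 inside and 16 of 30 outside (53.3%, 34.3 to 71.7). The autosomal IDR windows then gave 42 of 488 (8.61%, 6.27 to 11.5) and the other X candidates 52 of 5648 (0.921%). Replicate 1 alone gave 18 of 52 on X (34.6%) and 40 of 490 on the autosomes (8.16%). Replicate 2 alone gave 19 of 83 on X (22.9%) and 30 of 459 on the autosomes (6.54%), and outside windows 13 of 52 on X (25%) and 4 of 124 on the autosomes (3.23%). The X regions near T27A8.7, ZK899.6 and F55G7.5 held such a copy with 1 mismatch.

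Viewed from the genome, the core occurred 81 times on X (4.57 per Mb) and 233 times on the autosomes (2.82 per Mb). IDR regions overlapped 18 of the 81 X copies (22.2%, interval 13.7 to 32.8) and 2 of the 233 autosomal copies (0.858%, 0.104 to 3.07). Replicate 1 alone gave 18 and 2, and replicate 2 alone gave 19 and 0, which in replicate 2 allows up to 1.29% of autosomal copies at 3 counts. On X, 3 of 17 copies inside promoter windows and 15 of 64 outside lay in IDR regions, shares of 17.6% and 23.4% whose intervals overlap. The other 63 copies on X lay in no IDR region.

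**Figure D5:**
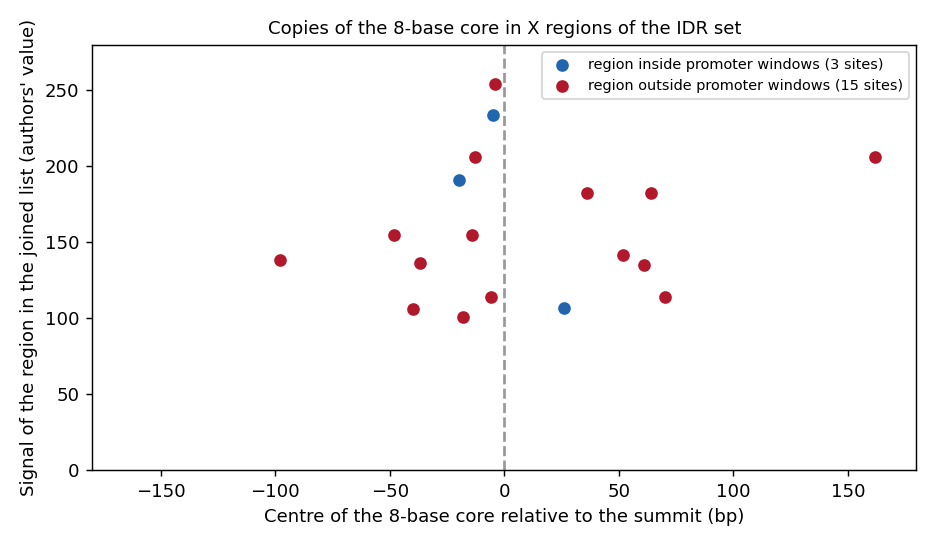
Centre of each of 18 copies of the 8-base core relative to the summit of its X region (bp, plus strand, horizontal axis) against the signal of that region in the joined list (authors' value, vertical axis). Of the copies 12 lie within 50 bp of the summit, and all regions have signals between 100.7 and 254.1.

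The copies in X IDR regions lay near the summits of the stronger regions. The 18 copies fell in 14 regions and lay a median of 36.5 bp from the summit (largest 162 bp), 12 of them within 50 bp. They stood on the plus strand 8 times and on the minus strand 10 times. The 14 regions ranked 60 to 185 in the joined list, with signals of 100.7 to 254.1 (median 140.1), and all 14 were in the top lists of both replicates. In that span of ranks lay 23 X regions, so 9 had no copy, and these 9 were likewise in the top lists of both replicates. A further 29 X IDR regions lie below the span. The X regions with a copy within 50 bp had a median signal of 154.7 (n = 11) and those without 61.3 (39.1 to 476.5, n = 43), with overlapping ranges. The 2 strongest X regions, at acl-1 and F02C12.3, had none.

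The bases beside the core recurred in the aligned sites, a comparison chosen after the sites were seen. Counting the first base of the core as position 1, C stood just before it in 14 of 18 copies of the X IDR regions, T before that in 14, then A in 11 and T in 11 further out, and A just after the core in 13. Among the 63 other copies on X no base at any of the 10 positions to each side reached more than 41.3%. Copies preceded by TC occurred 19 times on X, of which 12 lay in IDR regions (63.2%, interval 38.4 to 83.7), and 6 times on the autosomes, of which 0 did (a limit of 50% at 3 counts). Of the X copies preceded by other bases 6 of 62 lay in IDR regions (9.68%, 3.64 to 19.9). The same 18 copies gave the rule, so these counts describe it and do not test it. Replicate 2 alone gave 13 of 19 and 6 of 62.

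The words frequent at promoters were split the other way on X, with a higher share inside windows. The first word searched was ACGCGC, the next was GACGCA and the last was CGTAAA. All came from an earlier look at these data and are no independent evidence. At least 1 of them, on either strand, lay within 50 bp of 23 of 54 X IDR summits (42.6%, interval 29.2 to 56.8), 17 of 24 inside windows (70.8%, 48.9 to 87.4) and 6 of 30 outside (20%, 7.71 to 38.6). On the autosomes it was 275 of 488, with 256 of 430 inside windows (59.5%) and 19 of 58 outside (32.8%). Replicate 1 alone gave 20 of 52 on X (38.5%) and 260 of 490 on the autosomes (53.1%). Replicate 2 alone gave 19 of 83 on X (22.9%) and 192 of 459 on the autosomes (41.8%), and outside windows 5 of 52 on X (9.62%) and 11 of 124 on the autosomes (8.87%). The flanks of the X summits gave 3 of 108 and the other X candidates 380 of 5648 (6.73%). The X copies of the core and these words were mostly apart, with 3 windows of 50 bp to each side that held both. In these windows 1 copy, at gcc-1, has letters that run into ACGCGC, and so does a copy near gtr-1 that lies 70 bp from its summit. The repeat GAGAGAGA lay in 1 of 54 X IDR windows and 10 of 488 autosomal ones.

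Taking each X IDR window once, 11 held the exact core (3 inside promoter windows and 8 outside), 9 a copy with 1 mismatch (1 inside and 8 outside), and 19 at least 1 of the 3 words without such a copy (15 inside and 4 outside). The other 15 held neither, 5 inside and 10 outside, acl-1 and the region near K02D3.1 among them. Median signals were 154.7, 135.2, 73.3 and 45.6 in these classes, with ranges that overlap. A further word, CACTCCGCT, was chosen after the windows were read, and lay in 4 X IDR windows, at F02C12.3, gcc-1, Y34B4A.2 and asb-2, all inside promoter windows (4 of 24). It lay in 1 of 488 autosomal IDR windows and in 0 of the 5648 other X windows (a limit of 0.0531%). Replicate 1 alone gave 3 of 52 on X and 1 of 490 on the autosomes. Replicate 2 alone gave 2 of 83 on X (2.41%, interval 0.293 to 8.44) and 3 of 459 on the autosomes (0.654%, 0.135 to 1.90), intervals that overlap. Summit windows had a median of 47.5% G and C in X IDR regions (50.5% inside windows and 43.1% outside) and 45.5% in autosomal ones, against 31.7% in the other candidates of both groups, and its part in the word counts was not tested.

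Few X genes had an IDR summit in their promoter window. It was 27 of 2731 protein-coding genes on X (0.989%) and 667 of 17242 on the autosomes (3.87%), against 3.47% over all chromosomes. Candidates of any rank lay at like shares of genes, 42.6% on X and 43.0% on the autosomes. Other genes with an IDR summit in the window were serp-1.1 (signal 126.7), puf-9, which encodes a Pumilio-family RNA-binding protein (119.9), and ins-39, an insulin-like peptide gene (106.7). Weaker ones were sec-3, an exocyst gene (62.2), aps-2, of the clathrin adaptor (61.1), and hsp-3, a chaperone gene (50.8). The mitochondrial ATP synthase genes asg-2 (49.96, sharing its region with glr-6) and asb-2 (40.5) also had one. These genes were picked with their values in view and stand for no group.

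Of the 6 X-linked genes of sex determination and dosage compensation that the annotation names (xol-1, sdc-1, sdc-2, sex-1, fox-1 and ceh-39), 0 had an IDR summit in its window (a limit of 50% at 3 counts), and 3 had a candidate there. Measured to the closer end of each gene, the nearest IDR summits lay 4.86 kb from xol-1 and 3.83 kb from sex-1. The latter is a nuclear receptor gene that takes part in counting X chromosomes. The closer end is the 3′ end at sex-1 and fox-1 and the 5′ end at the others. The summit near sex-1 is the one in the promoter window of nucb-1. At fox-1, ceh-39, sdc-1 and sdc-2 the nearest IDR summits were 80.2, 53.4, 219.1 and 315.6 kb away. The best candidate within 1 kb of xol-1 ranked 14512, and that of sex-1 ranked 4093.

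Other gene families had few or no members with an IDR summit on X. Chemoreceptor genes had 0 of 33 (up to 9.09% at 3 counts), collagens 0 of 27 (11.1%), homeobox genes 0 of 21 (14.3%) and nuclear hormone receptors 0 of 23 (13.04%). Neuropeptide genes had 1 of 34 (ins-39), and ion channels and neurotransmitter receptors 1 of 32 (glr-6, of the glutamate receptor family, signal 49.96). Ribosomal protein genes had 1 of 2 on X, rpl-11.2 (signal 73.3, 50.3 in replicate 1 and 27.1 in replicate 2), and acyltransferases 1 of 4 (acl-1). Respiratory chain genes had 0 of 3 and heterochronic genes 0 of 3, each with a limit of 100% at 3 counts. The respiratory list was drawn by gene name and left out asg-2 and asb-2, which had an IDR summit. Set against 27 of 2731 for all X protein-coding genes, lists this short cannot show a difference.

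RNA genes were counted by their own 5′ ends, against 1.91% of genes of every type over all chromosomes. On X, 49 of 6022 genes of every type had an IDR summit (0.814%). Transfer RNA genes had 6 of 276 (2.17%), under 4 regions with signals of 39.1 to 61.3, 1 inside a protein-coding window and 3 outside, and these regions held no copy of the core. Small nucleolar RNA genes had 1 of 33 (T27A8.8), miRNA genes 0 of 74 (a limit of 4.05%) and snRNA genes 0 of 3.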

How the data were processed

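The authors deposited 8 peak lists (narrowPeak) on ce10 and ce11, namely 2 candidate lists of replicates, 1 of joined reads and 1 IDR set for each build. Per the notes deposited beside the sample files, alignments and a control file went into each candidate list. That control was not analysed here. For the aligner and peak caller, names were not given in the sources used here. The values used are the deposited signal of a region (its column 7), whose scale is not stated. It is used within 1 list, so values of different lists stand side by side only. Read depth is unknown.

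The ce11 lists were used, with 1-based coordinates, 29784 protein-coding 5′ ends of 19973 genes from Ensembl release 115 (WBcel235) and sequence from RefSeq. Regions of 2 lists were matched when they shared at least 1 bp, taking the closest summit. No test was run, since 1 group of 2 libraries allows none between groups. Shares carry exact (Clopper-Pearson) 95% intervals and a count of 0 a limit of 3 counts, both for counting error only, and regions are not independent replicates. The symbol sex-2 was not matched. The window at Y34B4A.2 reaches an annotated 5′ UTR and is not shown.

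Members, gene lists and words were chosen with earlier results of these data known. Regions named are the 15 strongest on X, the 8 strongest outside windows, the 3 on each side of the end of the IDR set, the 3 whose replicate ranks differ most and up to 2 per gene list. Any further gene or region was picked with its values in view. Alternatives were other windows, annotations, list lengths, builds and each replicate alone. Functions were tested on simulated data. Python 3.11.15, numpy 2.4.6, pandas 2.3.3 and scipy 1.17.1 were used.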

Additional observations from a re-analysis of the deposited data

How the results depend on the processing

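Of 71 alternatives over 13 results, 44 moved by less than 1 SD between the replicates (for shares without one, within the exact interval, and for counts of genes, within 1.5 times), 25 moved further and 2 changed sign. Where an SD was used, it came from the values of each replicate alone, which were themselves scored against it. The counts thus follow in part from how the SD was made. Of the 71, 6 were added after seeing the data. The cause was not tested.

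Each replicate alone gave an X share of 9.59 to 15.3% of its top list, 0.922 to 1.46% of X candidates in it, and 18.81 to 19.02% of all candidates. It gave 37.3 to 44.2% of X summits inside promoter windows, a difference to the autosomes of -44.3 to -35.6 points, and a median distance of 1057.5 to 1310 bp. The signal inside minus outside windows ran from -29.5 to 3.59, with 3.59 among the X regions of replicate 2's own top list. The central share was 28.8 to 34.9%, the spacing 130.5 to 248.8 kb, the share with any of 5 words 33.7 to 51.9%, that with GCGCAGGG 13.3 to 19.2%, and the protein-coding genes with a summit 26 to 34.

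The top 10000 gave X 19.2% of candidates. With a 2000 bp window 53.7% of X summits lay inside, and with 5′ ends of all gene types 59.3%, at a difference of -33.6 points and a median distance of 330.5 bp. In the stronger 50% of the IDR set the difference was -56.3 points and 36.7% of X windows held GCGCAGGG. In a joined list 2 times as long, these values were -28.5 points and 7.75%, the signal difference was 2.63, the central share 30.3% and any word 31.7%. The middle 50% of X held 38.9%. Any word in a window of about 200 bp in total, centred on the summit, came to 72.2%. For GCGCAGGG, 1 mismatch gave 37.0% and whole regions 25.9%.

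No paired analysis was possible because there is only 1 group. The number of regions and 2 libraries limit the precision, and depth is unknown.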
